A study of Homo sapiens with 24 samples.

Results

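The levels of all expressed genes after dexamethasone were compared between HepG2 cells carrying the K154Q form of the glucocorticoid receptor and cells carrying the wild type (WT) form. This comparison rests on 8 of the 24 libraries of the series, 4 of each genotype. HepG2 is a human liver cancer line. In every group the endogenous receptor gene NR3C1 had been knocked out by CRISPR, and a Ty1-tagged receptor was put back from a doxycycline-inducible lentiviral construct. The K154Q receptor carries glutamine in place of an acetylatable lysine, which resembles an acetylated lysine. WT and K154Q cells were induced for 24 h with 0.3 to 1 µg/mL doxycycline to match receptor protein, kept for 24 h in charcoal-stripped serum, and given 1 µM dexamethasone, a synthetic glucocorticoid, for 6 h. The vehicle libraries of the same genotypes, again 4 each, received ethanol and were otherwise handled alike. A further genotype, K154R, with an arginine there, completes the series. Per the labels, the 4 replicates of a group stem from 2 experiments with 2 transductions each, and how the replicate numbers map to these remains not given in the sources used here. Each group therefore consists of several transduced cultures of 1 knocked-out line, with the receptor driven by doxycycline and not by its own promoter.

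The glucocorticoid receptor is a ligand-activated transcription factor. It waits in the cytoplasm on a chaperone complex built around HSP90, moves to the nucleus when hormone binds, and activates genes through paired hexamer elements or through other DNA-bound factors. In liver cells it is known for inducing genes of gluconeogenesis and amino acid breakdown, feedback genes such as FKBP5, TSC22D3 and PER1, and for restraining inflammatory genes. Acetylation of lysines is one of the modifications that are known to alter its activity.

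The 8 dexamethasone libraries held 27485127 to 41947724 counts, with 23917 to 25659 genes detected. All 8 hepatocyte markers examined stood above 1 CPM (the count scaled by library total and TMM factor), from FOXA2 and TTR to ALB, and their summed level ran from 44522 to 52705 CPM in WT and from 42672 to 52498 CPM in K154Q. Of 5 cholangiocyte markers 3 averaged at least 1 CPM over the 8 libraries (KRT19, SOX9 and EPCAM) and CFTR was at 0. Of 7 fibroblast markers 1 did (PDGFRB), COL1A1 reached 1.30 CPM in its highest library and COL1A2 was at 0, and of 4 endothelial markers 1 did (PECAM1). Of 6 blood cell markers, 3 were at 0 (PTPRC, CD3E and HBB), and the others averaged under 1 CPM. Counts of mitochondrial genes took 8.99% to 12.6% of these libraries. WT replicate 2 stood apart on the first principal component of the 8 libraries, which held 33.0% of the variance.

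The spread per gene was estimated over all 24 libraries, after a filter for expressed genes and without the replicate number as a block. In that fit no gene differed between K154Q and WT after dexamethasone at an adjusted p under 0.05 (edgeR quasi-likelihood test with Benjamini-Hochberg adjustment). Of 16196 genes tested, 0 were called, which is 0%. At an unadjusted p under 0.05 there were 243 genes, or 1.5% of those tested. That is below the share of 0.05 that p-values give when no gene differs, so this test may be conservative here. Of the 243 genes, 104 lay higher in K154Q (0.642%) and 139 lay lower (0.858%). The smallest adjusted p was 0.742, for PKIB. With the block the edgeR test called 5 genes (0.0309%). PTPRD was higher in K154Q, with an adjusted p of 2.3e-05. PKIB, CD44, KIAA0319 and C19orf38 were lower, with adjusted p of 2.3e-05, 5.1e-08, 0.0158 and 0.0192. The labels do not say that a replicate number marks a shared experiment or transduction. Fitted without the block to the 8 libraries alone, edgeR called PKIB (adjusted p 0.0473). Over all 24 libraries without the filter it made calls in both directions, given further below. DESeq2 made 1 call, PKIB, and had 245 genes with an unadjusted p under 0.05. Without WT replicate 2 the edgeR test again called 0 genes, with 360 at an unadjusted p under 0.05.

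Differences were small over the bulk of the transcriptome. Among 12853 genes that averaged at least 1 CPM, the median absolute log2 difference was 0.062, and the lowest and highest deciles lay at -0.14 and 0.12. The replicates of a group spread more than that, with a median SD on the log2 scale of 0.157 in WT and 0.148 in K154Q. The median SE of a log2 difference was 0.114 and the median half-width of its 95% interval 0.235, so differences much under that size were not resolvable for a typical gene. A log2 difference of at least 1 in size was found for 6 of these genes, 3 in each direction. PTPRD, IGF2 and MASP1 lay higher in K154Q, and PKIB was among those that lay lower. Levels of the 4 K154Q libraries all lay above those of the 4 WT libraries for 79 genes (0.488% of those tested) and all below for 88 genes (0.543%). In the vehicle libraries the same counts were 82 and 75, which is 0.506% and 0.463%. Of the genes whose dexamethasone libraries did not overlap, 7 were also apart in the same direction in vehicle, 1 higher and 6 lower, and 1 was apart in the opposite direction.

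**Figure D1:**
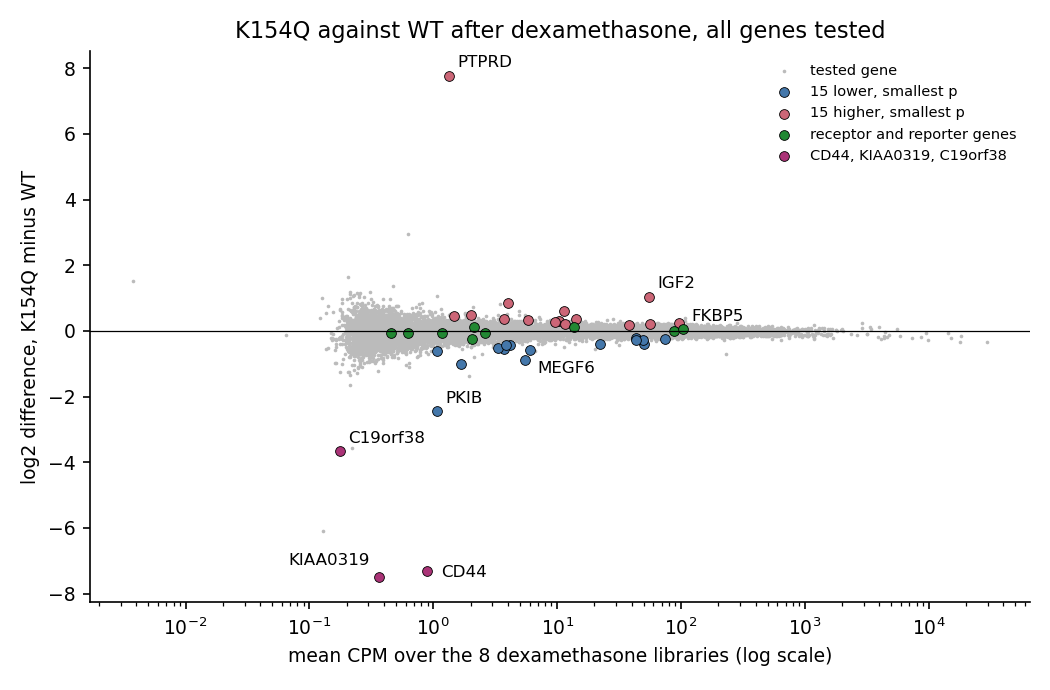
Each point is 1 of 16196 tested genes, with its mean CPM over the 8 dexamethasone libraries on a log scale and its fitted log2 difference, K154Q minus WT. The cloud is centred near 0; PTPRD, at 7.77, and CD44 and KIAA0319, at -7.30 and -7.51, lie far outside it, and the receptor and reporter genes lie close to the line.

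The receptor transcript itself did not separate the genotypes. NR3C1 stood at 87.5, 108, 74.0 and 83.9 CPM in WT replicates 1 to 4 and at 88.5, 102, 69.6 and 90.2 CPM in K154Q. Replicate 2 was highest and replicate 3 lowest in both genotypes, and the groups overlapped fully. The log2 difference was -0.01, with a 95% interval from -0.29 to 0.27. Counts of the gene cannot tell the transgene from transcripts of the disrupted endogenous locus, so they check the level and not the identity of the receptor.

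Genes that report receptor activity reached overlapping levels in the genotypes. Against their own vehicle libraries FKBP5, PNMT, UPP2, KCNH2, HIF3A and PDK4 rose in both (adjusted p under 0.05, edgeR), where 0.161% of genes were called in WT and 0.13% in K154Q. The reporters had been chosen with that response known. FKBP5, a chaperone that lowers the receptor's affinity for hormone and is itself a receptor target, stood at 99.99, 109, 92.6 and 108 CPM in WT and at 94.5, 107, 101 and 121 CPM in K154Q. The vehicle libraries of both genotypes lay between 46.0 and 55.6 CPM, so every dexamethasone library was above every vehicle library. After dexamethasone the difference between the genotypes was 0.05 on the log2 scale, with an interval from -0.14 to 0.23. PNMT, which encodes the enzyme that makes adrenaline from noradrenaline, stood at 2.0, 2.2, 1.5 and 2.5 CPM in WT and at 1.2, 2.3, 2.0 and 3.4 CPM in K154Q. The K154Q libraries enclosed the WT libraries, and the log2 difference was 0.11 (-0.53 to 0.74). UPP2, a uridine phosphorylase, stood at 2.46, 2.38, 1.11 and 2.89 CPM in WT and at 1.66, 1.27, 1.51 and 3.03 CPM in K154Q. Its difference of -0.26 (-0.88 to 0.36) was the largest in size among the reporters, and the groups overlapped.

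The remaining reporters showed the same overlap. PER1, a clock gene, differed by 0.12 (-0.18 to 0.43), TSC22D3, an anti-inflammatory target also called GILZ, by -0.06 (-1.09 to 0.96), and PDK4, a brake on pyruvate oxidation, by -0.07 (-1.10 to 0.96). HIF3A, a hypoxia-inducible factor subunit, differed by -0.05 (-0.83 to 0.73) and KCNH2, a potassium channel subunit, by -0.06 (-0.70 to 0.57). TSC22D3, PDK4 and HIF3A had the widest intervals of the reporters. TSC22D3 stood at 0.679, 0.977, 1.08 and 2.12 CPM in WT and at 0.353, 0.991, 0.936 and 2.37 CPM in K154Q, lowest in replicate 1 and highest in replicate 4 of both genotypes. The counts behind it were 148 in WT and 155 in K154Q.

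**Figure D2:**
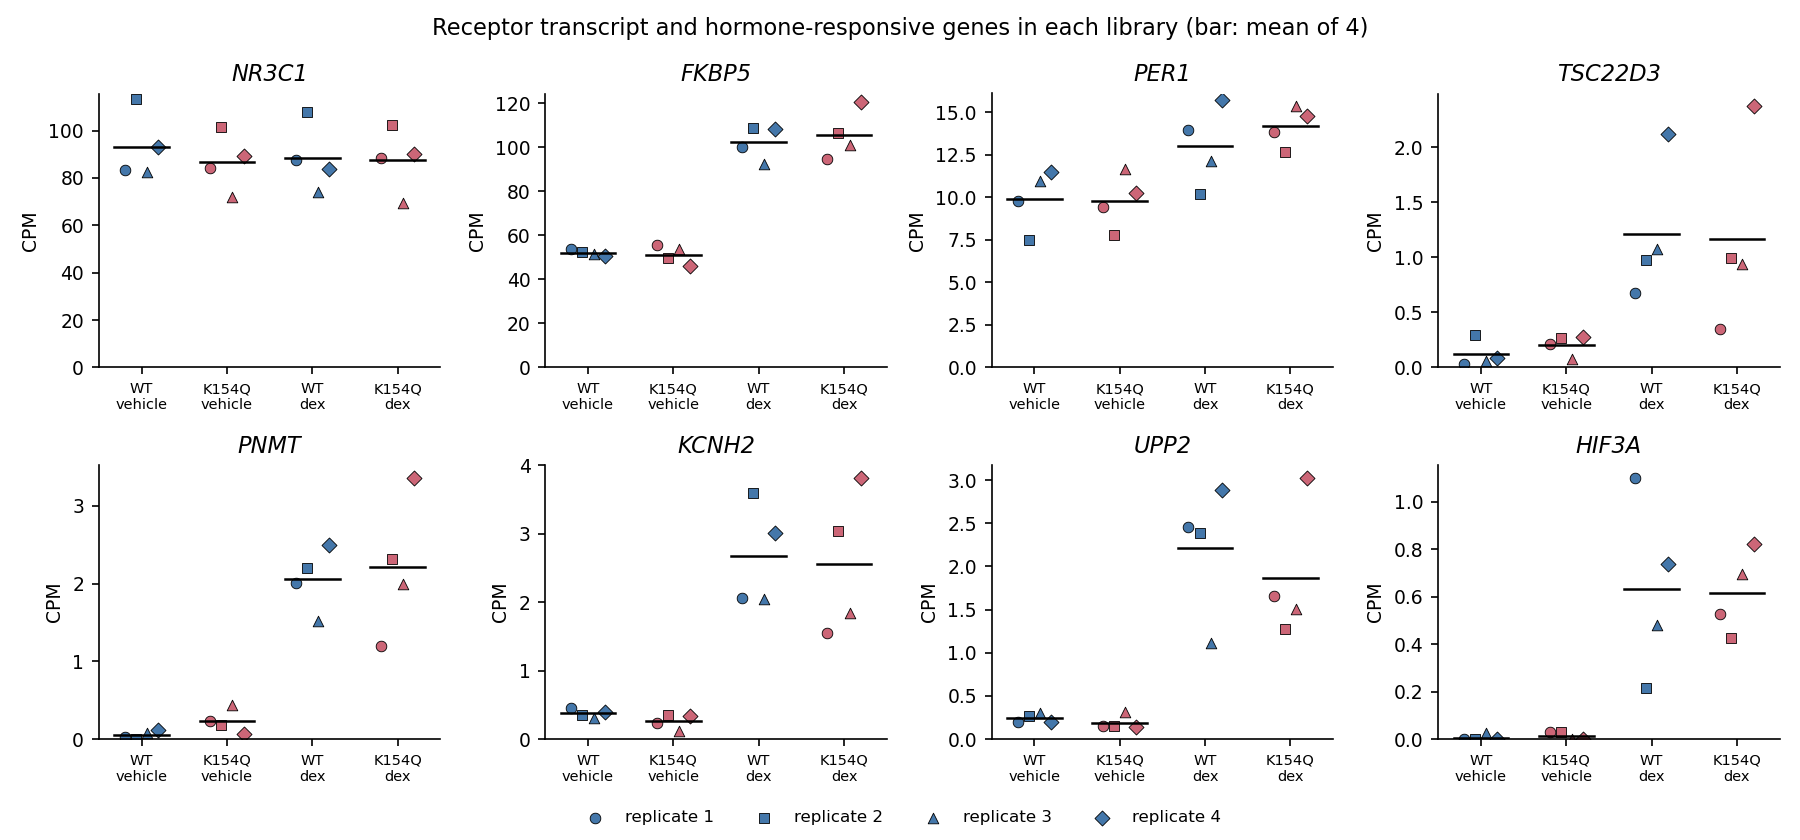
CPM of the receptor transcript and 7 hormone-responsive genes in each of the 16 WT and K154Q libraries, with the replicate number as the marker shape and a bar at the mean of 4. The dexamethasone libraries of both genotypes overlap in every panel, and NR3C1 is highest in replicate 2 and lowest in replicate 3 of each group.

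The wider list of glucocorticoid-induced targets had 25 of its 29 members tested. No member had an unadjusted p under 0.05. The log2 difference was positive for 15 and negative for 10, with a median of 0.00 beside a median of 0.01 over all genes; that median ran from -0.04 to 0.13 with 1 library left out. Its lowest member was PCK1, the gluconeogenic enzyme that makes phosphoenolpyruvate, at -0.42 (-1.25 to 0.40), on 0.562 CPM in K154Q and 0.738 CPM in WT. Among better expressed members, CEBPB, a liver transcription factor, stood at 0.11 (-0.16 to 0.38). A second list held 18 genes of the dexamethasone response in WT, which had been chosen on these same samples, so its direction is no independent evidence. Of these 5 were positive and 13 negative, with a median of -0.06 and no member at an unadjusted p under 0.05. The median moved to 0.04 without WT replicate 4 and to -0.23 without K154Q replicate 4, so its sign rested on single libraries.

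PKIB showed the smallest p of all tested genes. It encodes an inhibitor of the cAMP-dependent protein kinase and lies at chr6:122471917-122726373 on the plus strand (GRCh38, GENCODE annotation). Because the listed starts of PKIB lie far apart, the 250 bases before each of its 3 RefSeq starts are shown, from GRCh38.p14, with a match to the receptor's half-site (TGTTCT, or AGAACA on the other strand) in capitals. The first window spans chr6:122471671-122471920, the second chr6:122610155-122610404 and the third chr6:122652479-122652728.
PKIB window 1: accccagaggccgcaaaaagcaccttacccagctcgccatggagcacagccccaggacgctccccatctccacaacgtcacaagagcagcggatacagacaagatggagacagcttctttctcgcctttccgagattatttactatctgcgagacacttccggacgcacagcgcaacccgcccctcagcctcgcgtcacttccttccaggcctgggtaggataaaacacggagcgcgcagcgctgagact
PKIB window 2: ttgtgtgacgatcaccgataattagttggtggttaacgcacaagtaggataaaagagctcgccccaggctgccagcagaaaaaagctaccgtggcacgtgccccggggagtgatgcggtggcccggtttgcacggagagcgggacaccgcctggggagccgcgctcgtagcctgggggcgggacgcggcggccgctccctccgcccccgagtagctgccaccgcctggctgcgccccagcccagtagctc
PKIB window 3: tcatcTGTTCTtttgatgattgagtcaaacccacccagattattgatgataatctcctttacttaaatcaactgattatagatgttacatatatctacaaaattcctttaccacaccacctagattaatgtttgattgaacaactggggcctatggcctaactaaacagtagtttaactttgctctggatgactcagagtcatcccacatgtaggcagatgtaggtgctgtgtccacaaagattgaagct
A half-site was found in the third window, beginning 245 bases before the start, and no letters of that kind were found in the other windows. Of 35116 RefSeq promoter windows of the same length 12.4% held a half-site, and 1 held the full spaced element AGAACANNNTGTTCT. None of the PKIB windows held the full element. A match in letters is a description and not a binding site, and counts per gene do not tell which start was used.

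PKIB stood at 1.52, 1.47, 2.53 and 1.76 CPM in WT and at 0.247, 0.212, 0.453 and 0.428 CPM in K154Q after dexamethasone. Every K154Q library was below every WT library. The counts behind these values were 218 in WT and 44 in K154Q. The log2 difference was -2.44 ± 0.49 (SE, n = 4 against 4), with an interval from -3.45 to -1.43 and an edgeR adjusted p of 0.742. DESeq2 gave -2.45 with an adjusted p of 0.00889, and edgeR fitted to the 8 libraries alone gave -2.44 with an adjusted p of 0.0473. In vehicle PKIB stood at 1.12, 1.31, 2.12 and 2.73 CPM in WT and at 0.479, 0.269, 0.874 and 0.620 CPM in K154Q, again without overlap. The difference there was -1.74 ± 0.46. The test of whether the difference changed with dexamethasone gave an unadjusted p of 0.316 with edgeR. In the K154R dexamethasone libraries PKIB stood at 0.357, 0.201, 0.938 and 1.07 CPM, below every WT library as well; that group was set beside the same 4 WT libraries.

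MEGF6 was another gene with a small p that lay lower in both treatments. MEGF6, a protein with many EGF-like domains at chr1:3489920-3611495, stood at 5.98, 4.46, 8.28 and 9.69 CPM in WT and at 2.75, 4.08, 4.47 and 3.98 CPM in K154Q. WT replicate 2 touched the highest K154Q library, and the others were apart. The difference was -0.89 ± 0.23 after dexamethasone and -0.88 ± 0.23 in vehicle, where the groups did not overlap. After dexamethasone K154R differed from the same 4 WT libraries by -0.47 ± 0.23.

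SERPINE2, GCNT4 and SGMS2 also lay lower in both treatments. SERPINE2, a secreted inhibitor of serine proteases such as thrombin, stood at 60.3, 53.8, 62.9 and 51.6 CPM in WT and at 48.3, 40.3, 40.4 and 44.8 CPM in K154Q. The groups were apart, with a difference of -0.40 ± 0.11 after dexamethasone and -0.34 ± 0.11 in vehicle, again without overlap.  GCNT4, which adds branches to O-linked glycans, differed by -0.59 and -0.53 in the 2 treatments, and SGMS2, a sphingomyelin synthase, by -0.44 and -0.42. Both were without overlap in vehicle, and SGMS2 was so after dexamethasone too. K154R differed from the same WT libraries after dexamethasone by -0.40 for GCNT4 and by -0.03 for SERPINE2.

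**Figure D3:**
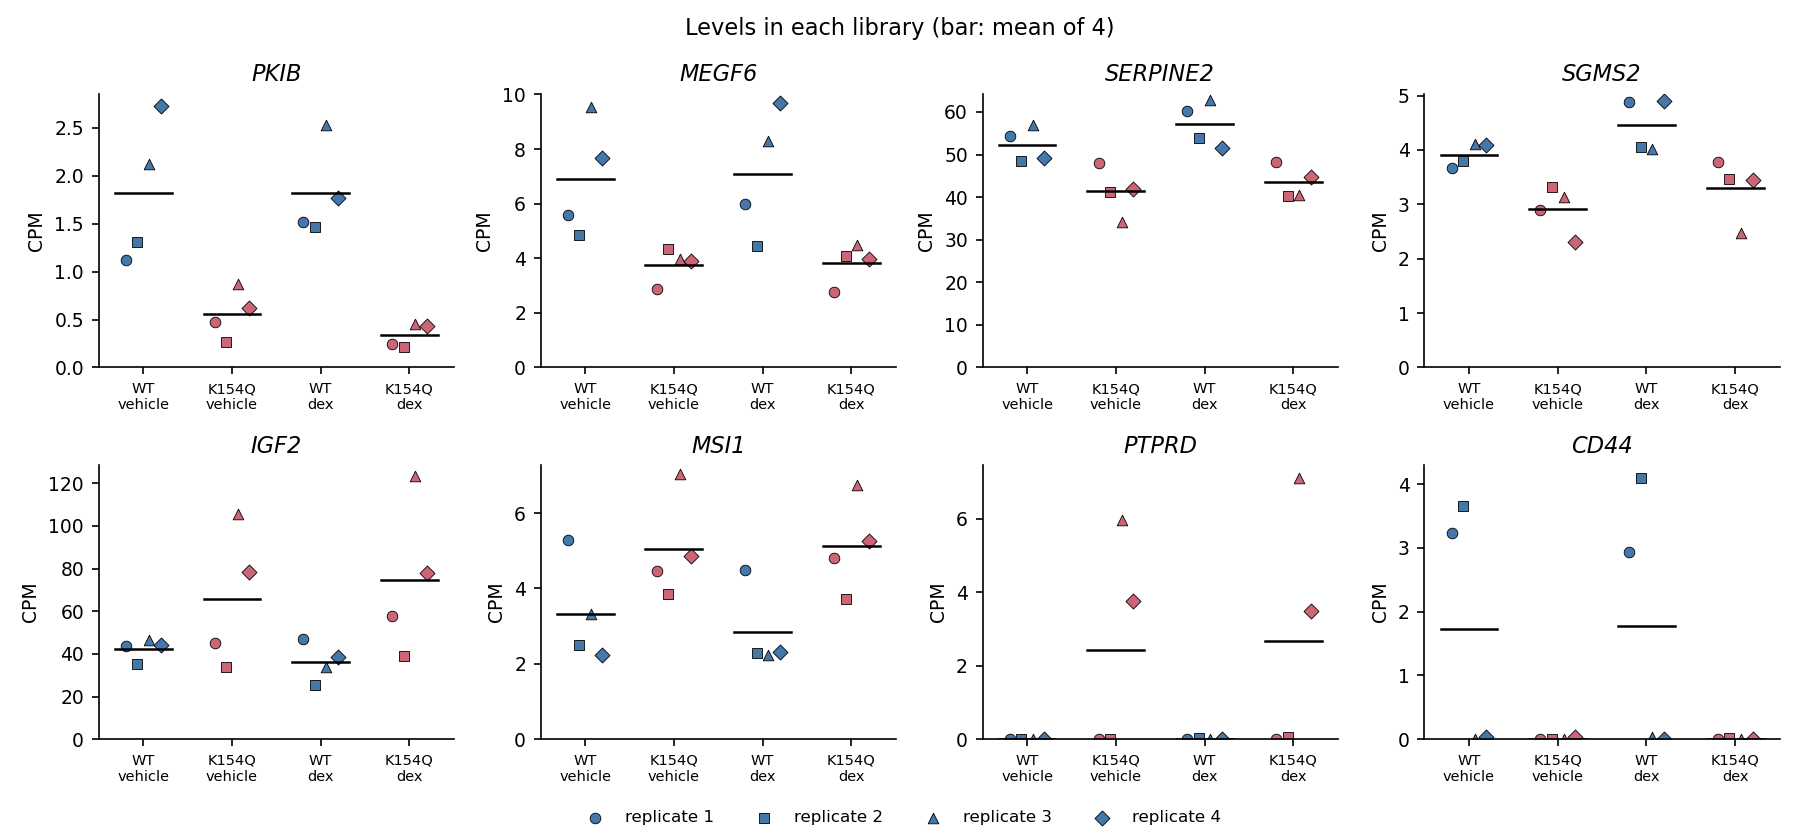
CPM of 8 genes in each WT and K154Q library, with the replicate number as the marker shape and a bar at the mean of 4. PKIB, SERPINE2 and SGMS2 are lower in all K154Q libraries of both treatments, while PTPRD is seen in K154Q replicates 3 and 4 and CD44 in WT replicates 1 and 2.

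Of the other genes with the smallest p among those lower in K154Q, the following 7 had a smaller difference in vehicle. F11R, the junctional adhesion molecule A, stood at 82.1, 76.7, 88.9 and 78.0 CPM in WT and at 70.9, 67.8, 59.9 and 75.5 CPM in K154Q after dexamethasone, without overlap. The difference was -0.25 ± 0.08, beside -0.03 in vehicle. ENPP2, the secreted enzyme that makes lysophosphatidic acid, differed by -0.57 ± 0.18 and by -0.30 in vehicle. FGFR2, a receptor for fibroblast growth factors, differed by -0.51 ± 0.18 and by -0.35 in vehicle. HKDC1, a hexokinase-like enzyme, and ABCB1, a drug efflux pump, differed by -0.22 and -0.28, and SLC27A2, an acyl-CoA synthetase for long fatty acids, by -0.27. MTCO1P12, a nuclear pseudogene of the mitochondrial gene MT-CO1, differed by -0.41, and its near identity to that gene makes its counts uncertain.

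Altogether 15 genes with a symbol and a mean of at least 1 CPM were taken in each direction by p. Since they were picked from this contrast, how many of them were apart in it supports nothing. For reference, 11 of the 15 lower and 6 of the 15 higher genes did not overlap. The vehicle libraries entered the pick only through the spread per gene, which was estimated over all 24 libraries. They are no independent check, because the same replicate numbers carried PTPRD and CD44 in both treatments. A difference between transduced populations could therefore recur in vehicle. In vehicle 13 of the 15 lower genes kept the sign, 6 with an unadjusted p under 0.05, and 6 were apart there. Among the genes apart in vehicle, MEGF6 and GCNT4 had overlapped after dexamethasone. Of the 15 higher genes 10 kept the sign, 2 with an unadjusted p under 0.05, and 0 were apart. In vehicle 0.438% of all tested genes were lower and 0.58% higher at that level. The median log2 difference of the lower genes was -0.44 after dexamethasone and -0.30 in vehicle, and that of the higher genes 0.36 and 0.06.

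IGF2 had the largest difference after PTPRD among the 15 higher genes. It encodes a fetal growth factor and lies at chr11:2129112-2149603. It stood at 46.8, 25.4, 34.1 and 38.6 CPM in WT and at 57.6, 39.0, 124 and 78.0 CPM in K154Q. K154Q replicates 3 and 4 were well above all other libraries, and replicate 2 lay within the WT range. The log2 difference was 1.04 ± 0.32 with an interval from 0.38 to 1.70, and it was 0.67 without K154Q replicate 3. In vehicle IGF2 stood at 35.2 to 46.7 CPM in WT, and at 45.1, 33.8, 106 and 78.3 CPM in K154Q, so the same replicate numbers were high.

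MSI1 and FADS2 were likewise highest in K154Q replicates 3 and 4. MSI1, an RNA-binding protein of progenitor cells, stood at 4.49, 2.29, 2.23 and 2.31 CPM in WT and at 4.80, 3.73, 6.74 and 5.26 CPM in K154Q. WT replicate 1 fell inside the K154Q range, and the difference was 0.85 ± 0.28. In vehicle the difference was 0.60 with an unadjusted p of 0.0419 (edgeR). FADS2, the delta-6 desaturase of polyunsaturated fatty acids, stood at 10.9, 10.4, 7.84 and 7.38 CPM in WT and at 9.59, 10.5, 18.6 and 16.5 CPM in K154Q. Replicates 1 and 2 of the genotypes overlapped and replicates 3 and 4 did not. The difference was 0.60 ± 0.22, beside 0.43 in vehicle.

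The other higher genes differed by less. SOBP stood at 14.4, 13.1, 10.6 and 11.2 CPM in WT and at 16.4, 16.5, 15.4 and 15.2 CPM in K154Q after dexamethasone, without overlap. Its difference was 0.37 ± 0.10 and 0.18 in vehicle. RAD51B, which acts in homologous recombination, differed by 0.36, MAP3K12, a stress kinase, by 0.48, and ZNF703, a transcriptional regulator, by 0.24. R3HDM1, ZBTB45, AUNIP, GAREM2, PPP2R5D and CRLF3 differed by 0.19 to 0.32, and their vehicle differences lay between -0.04 and 0.06.

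PTPRD, a receptor-type tyrosine phosphatase at chr9:8314246-10612723, was counted in some libraries of 1 genotype and hardly elsewhere. It stood at 0, 0.0472, 7.10 and 3.49 CPM in K154Q and at 0, 0.0305, 0 and 0 CPM in WT after dexamethasone. The same K154Q replicates, 3 and 4, carried it in vehicle, at 5.96 and 3.75 CPM, and all other WT and K154Q vehicle libraries were at 0. The groups overlapped through K154Q replicates 1 and 2. Over the groups there were 343 counts in K154Q and 1 in WT, a ratio of 311 with an exact 95% counting interval from 55.5 to 12325, which covers counting error only. In bulk RNA, more cells with the transcript and more transcript per cell cannot be told apart. Nor can genotype and transduced population be told apart for genes that some libraries of a group carry and others lack, which also holds for CD44 and KIAA0319. Each genotype had its own transductions. For every other gene, PKIB included, a share of the transduced population in the difference was therefore not tested.

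CD44, KIAA0319 and C19orf38 lay lower in K154Q and were chosen after their values were seen because they fall below the mean of 1 CPM. CD44 and KIAA0319 showed the reverse of the PTPRD pattern, counted in some WT libraries and hardly in K154Q. CD44, a hyaluronan receptor at chr11:35138870-35232402, stood at 2.94, 4.09, 0.0371 and 0 CPM in WT and at 0, 0.0236, 0 and 0 CPM in K154Q. WT replicates 1 and 2 carried it in vehicle too, at 3.23 and 3.66 CPM. The K154R dexamethasone libraries stood at 0.0357, 0.0335, 0 and 0 CPM. There were 226 counts in WT and 1 in K154Q after dexamethasone, a ratio of 249 with a counting interval from 44.3 to 9883. The 250 bases before its RefSeq start, at chr11:35138921-35139170 (GRCh38.p14, plus strand), are shown to set it beside PKIB. They held 0 half-sites. These bases lie inside the gene span given above, which begins earlier, so the RefSeq and GENCODE starts differ.
CD44: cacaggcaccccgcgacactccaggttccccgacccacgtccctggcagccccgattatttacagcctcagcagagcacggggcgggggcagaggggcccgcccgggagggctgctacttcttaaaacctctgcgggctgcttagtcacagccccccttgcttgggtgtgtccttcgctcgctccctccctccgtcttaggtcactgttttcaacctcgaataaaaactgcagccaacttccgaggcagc
KIAA0319, known from neuronal migration, stood at 0.0647, 0, 1.23 and 1.60 CPM in WT and at 0 in all K154Q libraries. WT replicates 3 and 4 carried it, and in vehicle they did so again. The pooled 85 counts in WT against 0 in K154Q gave a ratio of at least 31.2, with the K154Q group set to its upper limit of 3 counts. This ratio and those of CD44 and C19orf38 pool the 4 libraries of a group and cover counting error only. C19orf38 had 40 counts in WT and 3 in K154Q, a ratio of 14.7 with an interval from 4.68 to 74.3. All 4 of its WT libraries lay above all 4 K154Q libraries.

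Whether the genotype difference depended on the hormone was tested directly. The difference of the responses, K154Q minus WT, gave 0 called genes of 16196 (0%) with edgeR and 0 with DESeq2. With an unadjusted p under 0.05 edgeR had 145 genes (0.895%) and DESeq2 126. The vehicle comparison gave 0 called genes (0%) with edgeR and 165 at an unadjusted p under 0.05 (1.02%). DESeq2 made 0 calls there and had 131 such genes. With the replicate number as a block the vehicle comparison had 1 gene called higher, PTPRD, and 3 called lower, CD44, PKIB and C19orf38 (0.0247% of genes in all). The vehicle libraries are other libraries than the dexamethasone ones but may share their transduced populations, and the test of the responses uses both.

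Among the 30 genes taken by p, PCDHB2, LINC00491 and LINC02535 had a vehicle difference of over 0.2 in size that pointed the other way. R3HDM1, ZBTB45, GAREM2 and PPP2R5D also turned sign, with vehicle differences between -0.04 and -0.01. PCDHB2, a protocadherin whose family members are alike enough to make counts uncertain, stood at 4.91, 4.61, 4.72 and 4.65 CPM in WT and at 3.39, 3.51, 2.96 and 4.31 CPM in K154Q after dexamethasone. All K154Q libraries were lower, by -0.42 ± 0.12, while in vehicle the difference was 0.26. The interaction was -0.67 with an unadjusted edgeR p of 0.000779. LINC00491, a non-coding RNA, gave -0.60 and 0.38, with an interaction p of 0.00179. LINC02535, another, gave 0.46 and -0.42, with an interaction p of 0.000999. None passed adjustment over all genes with edgeR.

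**Figure D4:**
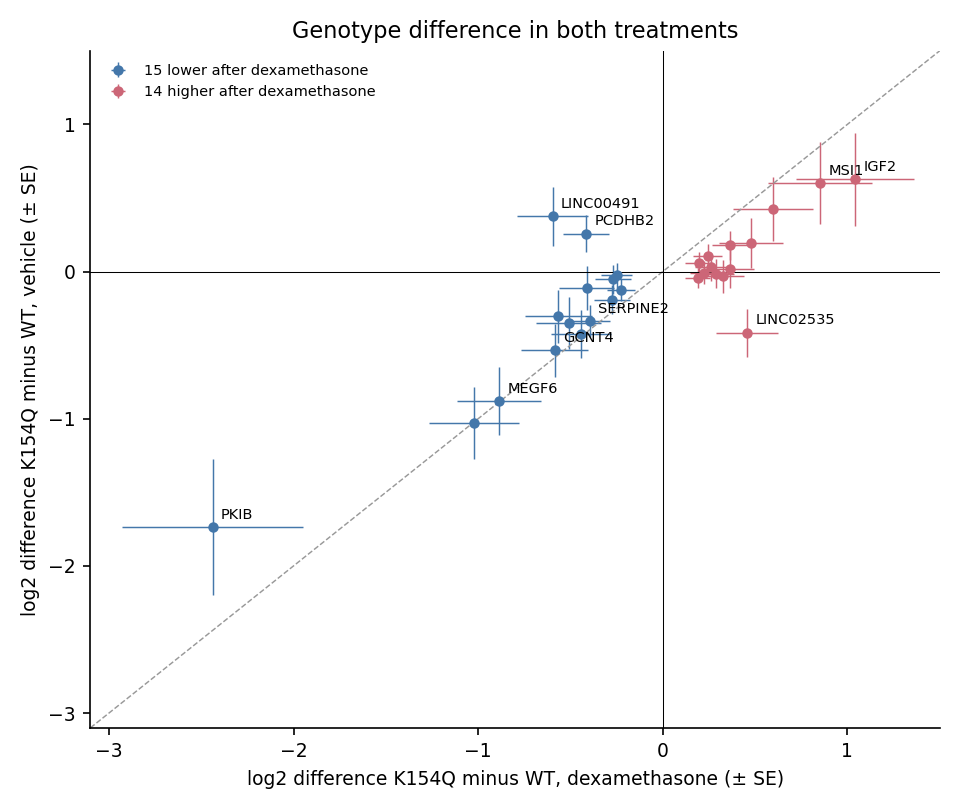
Fitted log2 difference, K154Q minus WT, after dexamethasone (horizontal) and in vehicle (vertical) with SE, for 29 of the 30 genes with the smallest p; PTPRD, at 7.77 and 9.23, is off the scale. MEGF6 lies on the dashed line of equal differences, and LINC00491, PCDHB2 and LINC02535 lie on opposite sides of 0.

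Messenger RNAs of the mitochondrial genome, which encode core subunits of the respiratory chain, lay lower in K154Q after dexamethasone. All 13 members had a negative log2 difference, with a median of -0.21, beside 7661 negative and 8535 positive over all genes and a median of 0.01. None was called, and 1 had an unadjusted p under 0.05. The summed level was 80958, 85162, 89217 and 82464 CPM in WT and 80546, 75297, 73310 and 59118 CPM in K154Q. By this sum all WT libraries lay above all K154Q libraries, with K154Q replicate 1 close to the lowest WT library and replicate 4 the lowest. The mean log2 CPM of the members overlapped, at 11.98 to 12.13 in WT and 11.53 to 12.03 in K154Q. Of the 13 members 2 were without overlap. In vehicle the sum was 80211, 75931, 74053 and 50889 CPM in WT and 82641, 78168, 64061 and 57225 CPM in K154Q, which overlapped, and the median difference was 0.01. Replicate 4 was the lowest of its group in 3 of these 4 groups. Without K154Q replicate 4 the dexamethasone median was -0.12, and over all libraries left out in turn it ran from -0.27 to -0.12. MT-CO1 (COX1 in the table), the catalytic subunit of cytochrome oxidase, stood at 17851, 21615, 20314 and 20078 CPM in WT and at 17283, 16910, 15652 and 13981 CPM in K154Q. Its difference was -0.32 ± 0.14, and the groups did not overlap. The 31 nuclear subunits of the respiratory chain had 14 positive and 17 negative differences and a median of -0.02, which turned positive without WT replicate 2 (0.04), K154Q replicate 1 (0.03) or K154Q replicate 3 (0.01).

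Most secreted plasma proteins of the liver lay lower too. Of 41 members tested out of 49, 38 were negative and 3 positive, with a median of -0.12 after dexamethasone and -0.03 in vehicle, and 0 were called. The mean log2 CPM of the list overlapped between the genotypes, at 7.46 to 7.50 in WT and 7.27 to 7.52 in K154Q. AFP, the fetal counterpart of albumin, stood at 8982, 9295, 9998 and 8789 CPM in WT and at 8402, 8081, 7936 and 8333 CPM in K154Q. AFP was the only member tested whose groups did not overlap, and its difference was -0.18 ± 0.09. ALB, serum albumin, stood at 19040, 20205, 18742 and 18058 CPM in WT and at 18312, 16384, 15297 and 18534 CPM in K154Q, which overlapped. VTN, the adhesion protein vitronectin, differed by -0.21 (-0.47 to 0.04). The median was -0.20 without K154Q replicate 4. Transcription factors of hepatocyte identity had 13 positive and 6 negative differences, with a median of 0.07 and of 0.00 in vehicle. It fell to 0.02 without WT replicate 3 and to 0.04 without WT replicate 2 or K154Q replicate 3. GATA4 lay at 0.19 (0.03 to 0.35) and ONECUT1 at 0.32, and no member was called.

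Genes of protein folding in the endoplasmic reticulum had 18 negative and 3 positive differences, with a median of -0.10 and of -0.01 in vehicle. PDIA6 and PDIA3, which form disulfide bonds, differed by -0.16 and -0.15, and DNAJB11, a co-chaperone, by -0.16. No member had an unadjusted p under 0.05. The median was -0.19 without WT replicate 4 and -0.06 without WT replicate 3, and the summed level of the list overlapped between the genotypes. Genes of xenobiotic and bile acid handling had 13 negative and 4 positive differences of 17 tested out of 27, with a median of -0.10 and of -0.01 in vehicle. CYP3A7, a fetal drug-metabolizing enzyme whose reads may be shared with its paralogs, stood at 0.449 CPM in WT and 0.238 CPM in K154Q, a difference of -0.91 ± 0.37. The list median was -0.15 without K154Q replicate 2. Genes of TGF-beta signalling and the extracellular matrix had 18 negative and 5 positive differences, with a median of -0.07 in both treatments and of -0.12 after dexamethasone without K154Q replicate 3.

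In several lists most members had a positive difference, and the medians were small. Chaperones and coregulators of the receptor had 26 positive and 6 negative differences of 32, with a median of 0.05 and of -0.01 in vehicle. It was 0.01 without WT replicate 4, 0.03 without WT replicate 3 and 0.08 without WT replicate 2. EP300, an acetyltransferase, lay at 0.19, with overlapping libraries. Cytosolic ribosomal proteins had 26 positive of 34 and a median of 0.03, with 0.05 in vehicle. That median was negative without WT replicate 1 (-0.02) or K154Q replicate 4 (-0.04) and reached 0.09 without K154Q replicate 1. Cell cycle genes had 26 positive of 37 and a median of 0.02, with -0.04 in vehicle. It was negative without WT replicate 3 (-0.01), WT replicate 4 (-0.04) or K154Q replicate 2 (-0.02) and reached 0.09 without WT replicate 2. FTH1, the ferritin heavy chain, stood at 370, 353, 353 and 342 CPM in WT and at 387, 402, 374 and 399 CPM in K154Q. Its libraries did not overlap, and the difference was 0.14 (-0.06 to 0.34). Proteasome subunits had 18 positive and 14 negative differences and a median of 0.01, which ran from -0.04 to 0.08 with 1 library left out. Inflammatory and NF-kB targets had 6 of each sign and a median of 0.00 (-0.08 to 0.06 with 1 library left out), with BIRC3, an inhibitor of apoptosis, at -0.33 (-0.77 to 0.11). No member of any of the 31 lists was called.

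**Figure D5:**
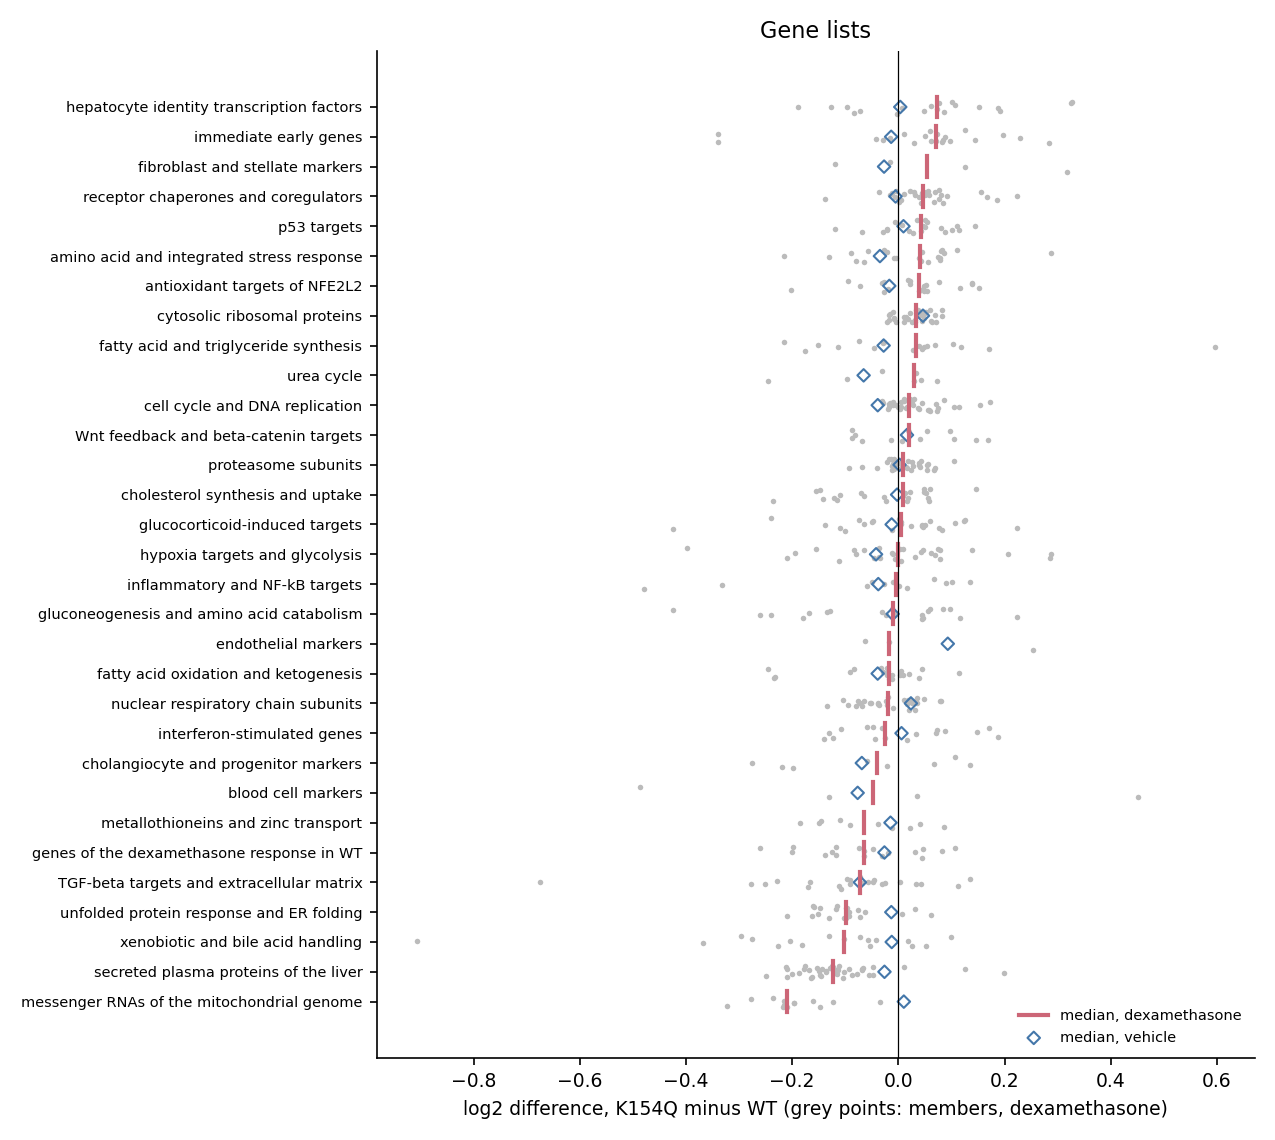
Log2 difference, K154Q minus WT, of the tested members of 31 gene lists after dexamethasone (grey points), with the list median after dexamethasone (bar) and in vehicle (diamond). Medians lie between -0.21, for mitochondrial messenger RNAs, and 0.07, for transcription factors of hepatocyte identity.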

How the data were processed

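Poly(A) RNA of 24 HepG2 cultures was sequenced, and the authors deposited raw read counts per gene. Per the submitters' processing notes, bcl2fastq 2.20.0.422, cutadapt 3.7, STAR 2.7.6a, featureCounts 2.0.3 and the GRCh38.p13 build were used; the strand setting and the treatment of multi-mapping reads have not been given in the sources used here, so counts of near-identical and of overlapping genes are uncertain. Samples were grouped by title. Genes were kept with filterByExpr (16196 of 60683), scaled by TMM, and fitted with edgeR 4.0.16 in R 4.3.3 as 6 group means over all 24 libraries without a block; calls were made at a Benjamini-Hochberg adjusted p under 0.05. SE is the absolute log2 difference divided by the root of F. CPM values use TMM-scaled library sizes. No pair of replicates agreed within sampling noise. The fit was tested on simulated data. Promoter sequences came from RefSeq (GRCh38.p14) and gene coordinates from GENCODE on GRCh38; symbols are those of the table.

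The members and the gene lists were chosen with earlier results of these data known. Named genes are the 15 with the smallest p in each direction among genes with a symbol and a mean of at least 1 CPM, genes called in the fit without or with the replicate block at that mean, up to 3 members per list, NR3C1 and 8 reporters; a few genes that this rule takes are not reported here. Same-numbered vehicle libraries of WT and K154Q deviated together (r from 0.306 to 0.524), so blocked values are given for vehicle where calls change; dexamethasone libraries were not treated as pairs, and their blocked calls are given as an alternative. Alternatives were DESeq2 1.42.0, RLE scaling, no filter, a stricter filter, no mitochondrial genes, the contrast's libraries alone, the replicate block, and leaving out each library.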

Additional observations from a re-analysis of the deposited data

Results flagged for a closer look

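Among 79 genes examined in 4 groups each, and 10 list values, 11 values stood far from the other 3 libraries of their group by Dixon's 95% criterion. Chance flags about 1 in 20 groups, and the genes alone made up 316 groups, so these flags are no more than chance would give. In the WT dexamethasone group, replicate 1 was high for MSI1 (4.49 CPM against 2.23 to 2.31), VTN (53.4 CPM against 40.0 to 40.5) and BIRC3 (7.18 CPM against 4.73 to 5.01). Replicate 2 of that group was high for EBP, an enzyme of cholesterol synthesis (52.0 CPM against 41.4 to 43.0). Replicate 3 was high for ABCB1 (59.3 CPM against 51.5 to 52.8) and replicate 4 for CPT1A, which admits fatty acids to mitochondria (51.4 CPM against 46.5 to 46.6). In the K154Q dexamethasone group, replicate 3 was low for the epithelial marker EPCAM (182 CPM against 242 to 245), and replicate 4 was low for the mean log2 CPM of the endoplasmic reticulum folding list (7.52 against 7.62 to 7.63). In the WT vehicle group, replicate 4 was high for the proteasome subunit PSMD3 (223 CPM against 190 to 192) and low for CPS1, the first enzyme of the urea cycle (63.8 CPM against 77.9 to 79.3), and replicate 3 was low for EBP (34.4 CPM against 42.4 to 43.9).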

How the results depend on the processing

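After dexamethasone 0 genes were called with RLE scaling, the stricter filter and without mitochondrial genes, and 0 with any single library left out (182 to 433 at an unadjusted p under 0.05). With DESeq2, and with edgeR on the 8 libraries alone with or without the replicate block, 1 gene was called lower, PKIB. Whether the replicate numbers pair the dexamethasone libraries was not given by the labels, and same-numbered libraries correlated at 0.347, 0.392, 0.390 and 0.011, with 6 of 8 closest to their own number. With the replicate block over 24 libraries 1 gene was called higher and 4 lower, and in vehicle 1 higher and 3 lower; the block on the vehicle libraries alone called 2 lower, PKIB and MEGF6. Without the filter 7 genes were called higher and 11 lower after dexamethasone, and 6 and 8 in vehicle; there the prior degrees of freedom were infinite, against 5.84 with the filter, so genes shared 1 trend of spread. Among the genes named, PTPRD, IGF2, MSI1 and FADS2 were called higher there and PKIB, MEGF6, CD44, KIAA0319 and C19orf38 lower. The difference of responses gave 0 calls in every setting run. Genes apart between the groups numbered 145 to 327 higher and 173 to 360 lower with 1 library left out, which fewer samples favour.

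Directions turned when 1 library was left out for NR3C1 (-0.10 to 0.10), FKBP5 (-0.038 to 0.092), TSC22D3 (-0.66 to 0.34), PDK4 (-0.41 to 0.36), HIF3A (-0.35 to 0.36), PNMT (-0.17 to 0.30), KCNH2 (-0.32 to 0.11) and CEBPB (-0.0077 to 0.168), and for HIF3A on the 8 libraries with the replicate block (0.050); all had intervals that include 0. Few counts in a group left the size of a ratio loosely bounded, as for KIAA0319 with 0 and C19orf38 with 3 counts in K154Q.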

Other observations

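Several genes varied by replicate number more than by genotype. CDH2, the adhesion protein N-cadherin, stood at 11.4, 14.9, 2.45 and 3.27 CPM in WT and at 8.15, 11.3, 2.02 and 2.96 CPM in K154Q after dexamethasone, so replicates 1 and 2 were high in both genotypes. VCAN, the matrix proteoglycan versican, stood at 29.3, 63.9, 13.7 and 12.5 CPM in WT and at 30.3, 59.0, 12.02 and 16.0 CPM in K154Q, with replicate 2 highest in both. MT1G, a metallothionein whose paralogs make its counts uncertain, was lowest in replicate 4 of both genotypes, at 0.642 and 0.625 CPM. In vehicle, IGFBP1, a secreted binder of insulin-like growth factors, stood at 204, 159, 468 and 856 CPM in WT and at 237, 150, 465 and 731 CPM in K154Q, so replicates 3 and 4 were high. G6PC1, the last enzyme of glucose release, stood at 2.38, 1.10, 3.32 and 7.86 CPM in WT vehicle and at 2.72, 0.658, 3.77 and 6.54 CPM in K154Q vehicle, lowest in replicate 2 and highest in replicate 4 in both. These genes were chosen after their values were seen, for the largest SD of log2 CPM within a group.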
